A study of Mus musculus with 16 samples.

Results

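The mouse H2 genes are the genes of the major histocompatibility complex, and they were described here as gene models in the annotation deposited with a series on bone-marrow-derived macrophages. Members were all Ensembl genes, of any biotype, whose name starts with H2 and a hyphen. The rule found 44 members among 46078 Ensembl genes, of which 34 were protein-coding and 10 were pseudogenes of some kind. All 44 lay on chromosome 17 of build mm10. By name, 31 members belonged to class I, 12 to class II and 1, H2-Ke6, to neither.

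The series holds 16 libraries of macrophages that were grown from mouse marrow for 7 days with M-CSF, a macrophage growth factor, at 50 ng/ml, and that were either left untreated or given lipopolysaccharide (LPS), a bacterial cell wall component. Wild-type C57BL/6 cells gave 6 RNA-seq libraries, 3 untreated and 3 with LPS, and 4 ribosome profiling libraries made with cycloheximide (CHX in the labels), 2 untreated and 2 with LPS. Cells of the genotype LysM-Cre x RiboTag, in which myeloid cells carry a tagged ribosomal protein, gave 6 RiboTag libraries, of which 2 had LPS for 6 h, 2 had it for 24 h and 2 had none. Their strain, and the LPS time of the other libraries, are not given in the sources used here. Library values, and with them depth and the macrophage markers, were not analysed here, so no H2 gene is said to be expressed or changed by LPS. The counts below are complete counts of gene models and have no replicate spread.

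Class I molecules are cell surface proteins that hold short peptides from inside the cell for recognition by CD8 T cells, and the heavy chain that the H2 gene encodes pairs with beta-2 microglobulin. Class II molecules are pairs of an alpha and a beta chain that hold peptides from the endocytic route for CD4 T cells, and macrophages are among the cells that raise them when activated by interferon gamma. In mouse, H2-K and H2-D are the classical class I genes of C57BL/6, the Q, T and M series are the non-classical ones, A and E are the classical class II molecules, and DM and O act inside the cell on class II peptide loading.

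The members spanned 3508722 bases, from H2-K2 at 33974831 to H2-M2 at 37483552, and fell into 7 clusters when a gap of over 100000 bases was taken to part clusters. The proximal cluster, from H2-K2 to H2-Ea-ps, held 15 members in 369813 bases, among them both K genes and all 12 class II members. The D and Q cluster held 9 members in 211834 bases, from H2-D1 to H2-Q10, all of them on the plus strand and with 0 other protein-coding genes between them. The T and M cluster held 14 members in 666525 bases, from H2-T24 to H2-M1, and 13 of these lay on the minus strand. The 6 remaining M members formed a pair of M10 genes, the pair H2-M6-ps and H2-M5, and 2 clusters of 1 gene each, H2-M3 and H2-M2.

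**Figure D1:**
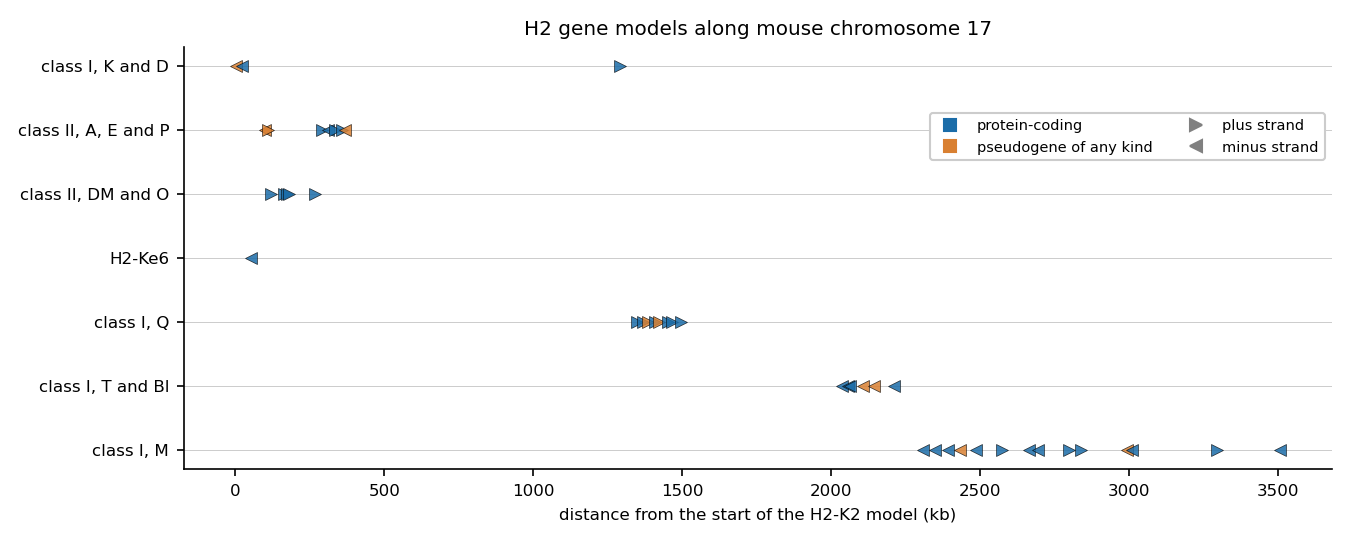
Position of each of the 44 H2 gene models on chromosome 17, in kb from the start of H2-K2, with 1 row for each series; arrowheads give the strand and colours give coding and pseudogene models. The K genes and the class II genes sit at the left end, while H2-D1 and the Q genes follow after a gap of 918086 bases.

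The gap between neighbouring members had a median of 27341 bases. The smallest, 1518 bases, separated H2-DMb2 from H2-DMb1, which both encode a beta chain of DM. The largest, 918086 bases between H2-Ea-ps and H2-D1, held 64 other protein-coding genes, and the next largest, 531131 bases between H2-Q10 and H2-T24, held 26. In 29 of 43 gaps no other protein-coding gene was annotated, and in 31 of 43 both neighbours lay on the same strand. In all, 137 protein-coding genes of other names lay between the outermost members, among them 16 olfactory receptor (Olfr) genes and 6 Trim genes.

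Of 13 listed genes that load or support class I molecules, 5 lay on chromosome 17. Psmb9 and Psmb8, subunits of the immunoproteasome that cuts peptides, and Tap1 and Tap2, the transporter that carries the peptides into the endoplasmic reticulum, all lay between H2-DMb1 and H2-Ob, at 21758 to 37449 bases from the nearest member. Tapbp, which encodes tapasin, a bridge between the transporter and class I molecules, lay 45543 bases before H2-K2. B2m, the gene of beta-2 microglobulin, lay on chromosome 2. None of the 8 listed genes of class II loading and control, such as Cd74 for the invariant chain and Ciita for the class II transactivator, lay on chromosome 17, and neither did any of 13 listed genes with a class I fold and another name.

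Class I coding members had a fixed exon plan. In the transcript with the longest coding sequence, coding exons 2, 3 and 4, which encode the alpha 1, alpha 2 and alpha 3 domains of the heavy chain, were most often 270, 276 and 276 bases long, or 90, 92 and 92 codons. Exon 2 had that length in 20 of 24 class I coding genes, exon 3 in 22 and exon 4 in 22. All 3 lengths, each within 6 bases, were met by 19 of 24. Over all 22159 protein-coding genes the share was 0.0903%, which is 20 genes, so that 1 gene outside the members met the rule. That gene was Cd1d1, a lipid-presenting relative of class I on chromosome 3, with exons of 273, 279 and 279 bases. The exons used here come from the family that the lengths were taken from, so the count describes how uniform the family is.

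The classical genes showed the plan in full. H2-K1 (chr17:33996017-34000333, minus strand) had 8 coding exons of 64, 270, 276, 276, 120, 33, 39 and 29 bases, which encode 369 codons, and another coding transcript ended with an exon of 2 bases in place of 29. H2-D1 (chr17:35262730-35267499, plus strand) had 73, 270, 276, 276, 117, 33, 39 and 2 bases and encodes 362 codons. Coding exons 2 to 4 made up a median of 80.9% of the coding sequence over the 24 class I genes, from 68.1% in H2-T22 to 85.3% in H2-Q4.

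After exon 4 the class I genes differed more. They had 5 coding exons in 14 genes, 6 in 4, 7 in 2, 8 in 3 and 9 in 1, H2-T22. The 6 coding M10 genes, which are known for expression in the vomeronasal organ, all ended with a coding exon of 98 bases directly after the alpha 3 exon. H2-Q10, which encodes a secreted class I protein of the liver, ended with 80 bases after exon 4, and H2-Q6 and H2-Q4 with 92. H2-T23, the gene of Qa-1, which presents leader peptides of other class I chains, had 7 coding exons that ended with 117, 30 and 41 bases. H2-M3, which presents formylated bacterial peptides, ended with 105 and 8 bases. The coding part of exon 1, which encodes the leader, took 9 lengths between 52 and 85 bases, with 73 bases in 8 genes and 64 in 6.

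The 5 class I coding genes outside the rule each departed in a named exon. H2-Q4 had 354 bases in exon 2. H2-Q7, a gene of Qa-2, had 285 bases in exon 4 of its longest coding sequence, while another of its transcripts had 276. H2-T22, a ligand of some gamma delta T cells, had 261 and 237 bases in exons 2 and 3. H2-T24 had 297 bases in exon 2, and H2-M1 had 285 in exon 4. Exon 3 of H2-T24, with 273 bases, and exon 2 of H2-M1, with 267, lay within the 6 bases allowed. With any transcript of a gene allowed, H2-Q7 met the rule and 20 of 24 did.

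**Figure D2:**
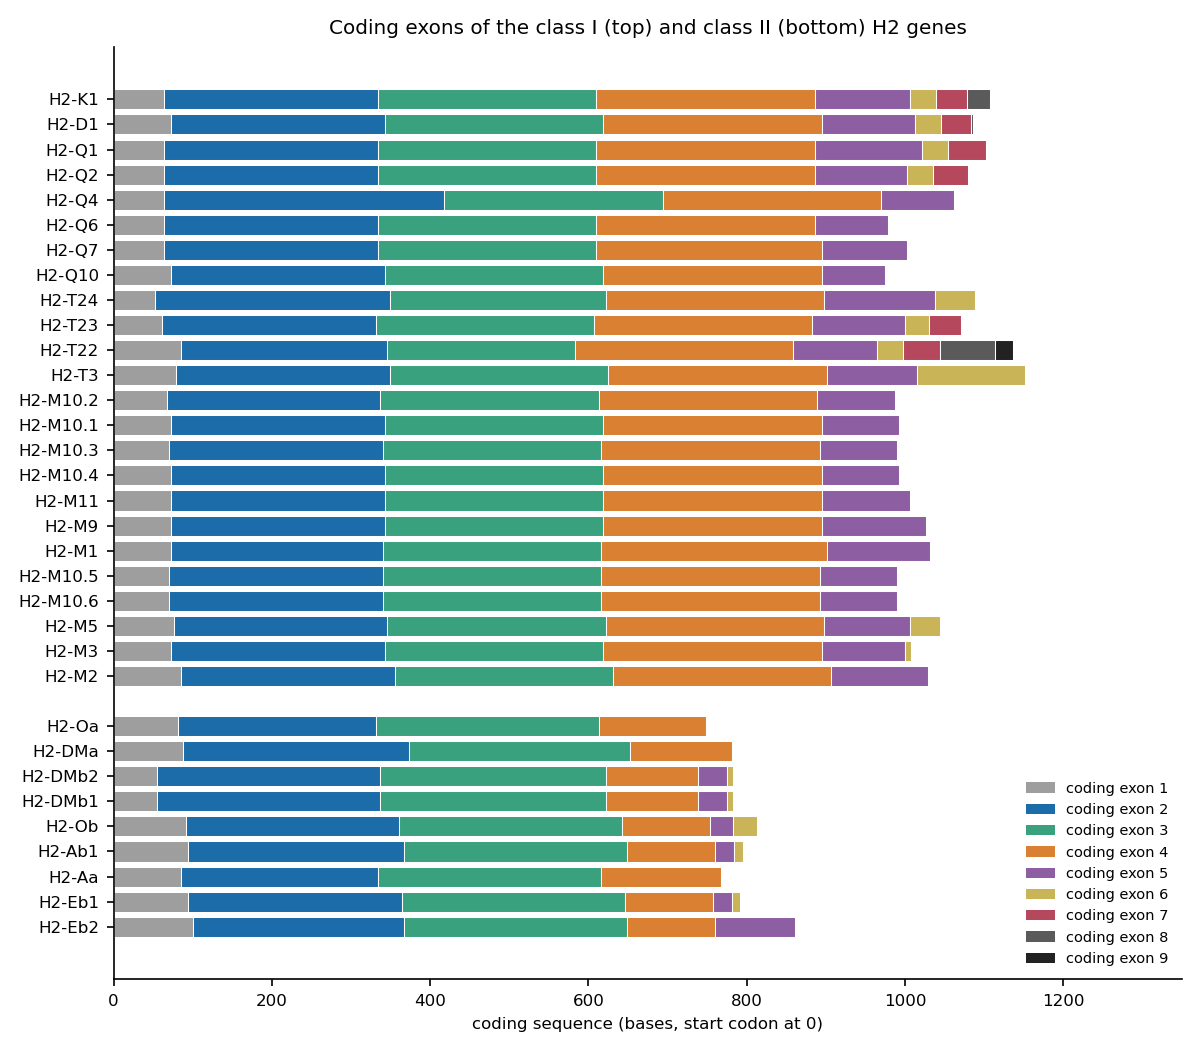
Coding exons of the 24 class I genes (top) and 9 class II genes (bottom) drawn to scale in bases from the start codon, coloured by coding exon number, for the transcript with the longest coding sequence. Exons 2, 3 and 4 line up in most class I genes, H2-Q4 has the longest exon 2 with 354 bases, and class II genes have 2 long exons in place of 3.

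Exon borders fell at the same place in the codon throughout the family. Of 93 internal coding exons of class I genes, 90 (96.8%) began after the first base of a codon and were a whole number of codons long, and so did 29 of 31 (93.5%) in class II genes. Over all protein-coding genes this was 19615 of 158174 internal coding exons (12.4%). Exons with such borders can be joined or skipped without a change of reading frame, and transcripts of this kind were annotated. H2-K1 had a coding transcript of 64, 276, 120, 33, 39 and 29 bases, which lacks an exon of 270 bases and another of 276, and 1 H2-Q7 transcript lacked the alpha 3 exon.

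The intron after coding exon 3 parted the M genes from the K, D and Q genes, and the introns before it did not. After exon 1 the M genes had 187 to 241 bases and the Q genes 112 to 203. After exon 2 the ranges were 154 to 261 and 180 to 243. The intron after coding exon 3 was 1669 bases in H2-D1 and 1710 in H2-K1, and it ranged from 1366 bases (H2-Q2) to 2221 (H2-Q4) in the 6 Q genes. In the 12 M genes it ranged from 536 bases (H2-M10.1) to 995 (H2-M3), so the M genes did not overlap the K, D and Q genes. The 4 T genes lay across both ranges, from 308 bases in H2-T24 to 1650 in H2-T3. The intron after exon 4 varied little, from 99 bases in H2-M1 to 148 in H2-T22, with a median of 127 over 24 genes. H2-T24 stood apart with 2922 bases after exon 1, against a class I median of 208.

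Class II genes carried 2 domain exons. In the alpha chain genes, exon 2 was 249 bases in H2-Aa and H2-Oa and 285 in H2-DMa. In the beta chain genes, exon 2 was 273 bases in H2-Ab1, 270 in H2-Eb1 and H2-Ob, 267 in H2-Eb2 and 282 in H2-DMb1 and H2-DMb2. Exon 3, which encodes the immunoglobulin-like domain, was 282 bases in 6 of 9 genes, 279 in H2-DMa and 285 in both DMb genes. H2-DMb1 and H2-DMb2 had the same 6 coding exon lengths, 55, 282, 285, 117, 36 and 8 bases, and 261 codons each. Class II introns were longer at the start of the gene, with a median of 1979 bases after coding exon 1 over 9 genes and 7491 in H2-Eb2, the longest of them.

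H2-Ke6, which encodes a short-chain dehydrogenase (Hsd17b8) and carries an H2 name for its place, had 9 coding exons and 259 codons and no coding exon of the lengths given for exons 2 to 4 of class I or exons 2 and 3 of class II genes.

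Coding members were short genes. Their longest spliced transcript had a median of 1516.5 bases, with quartiles of 1269.75 and 2286.25, against 2549 over all protein-coding genes. By the median over each gene's transcripts the values were closer, 1238 against 1472. The 3 longest were H2-Q10 with 4328 bases, H2-Q7 with 4209 and H2-T22 with 3062, and in all 3 the longest transcript was a retained-intron form with no coding sequence. The coding sequence had a median of 331 codons against 387, and all 34 coding members lay below that median, from 250 codons in H2-Oa to 384 in H2-T3. The gene span had a median of 4498 bases against 16345, and again all 34 lay below. Annotated untranslated ends were short as well, with medians of 45.5 bases at the 5′ end against 126, and 363.5 at the 3′ end against 553. Some models had none: H2-M11 had 0 bases at both ends and no stop codon. H2-M1 had 0 at the 3′ end, and H2-M5 and H2-M10.5 had 0 at the 5′ end. RefSeq ended H2-M11 at 36550273, against 36549250 in the deposited annotation. How far incomplete models shorten these medians was not tested.

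**Figure D3:**
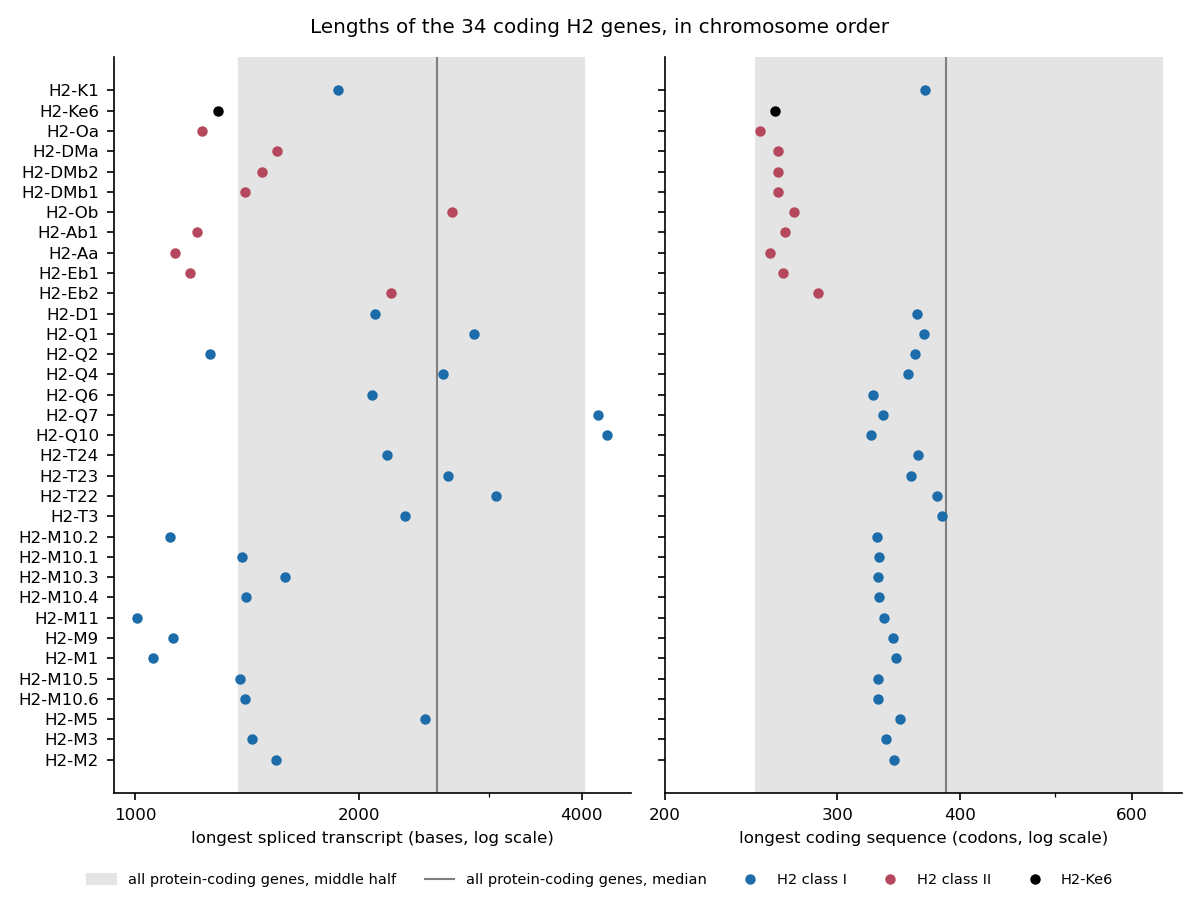
Longest spliced transcript in bases (left) and longest coding sequence in codons (right) of the 34 coding H2 genes on log scales; the line and the grey band mark the median and the middle 50% of all 22159 protein-coding genes. All coding sequences lie left of the median of 387 codons, while 7 spliced lengths, H2-Q10 with 4328 bases at the far right, lie beyond 2549.

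The 34 coding members had 102 transcripts, with a median of 2 for each gene, the same as over all protein-coding genes. H2-T3, the gene of the thymus leukaemia antigen, had the most with 10, followed by H2-K1 with 9 and H2-Ke6 with 8, and 9 coding members had 1 transcript. Retained introns marked 28 of 102 transcripts (27.5%), against 18.8% of the transcripts of all protein-coding genes. Processed transcripts without a coding sequence were 5 (4.90%), against 14.5%. Of the 9 transcripts of H2-K1, 4 retained an intron and 4 were coding. H2-T3 had 8 transcripts with a coding sequence, and 5 of its 10 transcripts were marked for nonsense-mediated decay.

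Reads in shared exons can be given to more than 1 gene. Over 50% of exon bases were shared on the same strand in 1 of 34 coding members, against 7.45% of all protein-coding genes, and any shared base was found in 4 of 34 (11.8%), against 13.3%. The member past 50% was H2-Ke6, with 1309 bases (85.4%) inside the exons of Gm20427, a processed transcript model that extends past the gene. H2-Q6 shared 1008 bases (48.3%) with a model named H2-Q8, H2-D1 shared 1064 (41.3%) with one named H2-L, and H2-Q7 shared 1521 (35.7%) with one named H2-Q9. The other 30 coding members, H2-K1 and all class II genes among them, shared 0 bases.

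Those 3 partners were added to the annotation from outside Ensembl and lay on top of a member. The H2-Q9 model had 6 introns and all 6 were identical to introns of H2-Q7, the H2-Q8 model matched H2-Q6 in 4 of 4, and the H2-L model matched H2-D1 in 6 of 10. The unmatched introns of the H2-L model were short breaks inside coding exons 1 and 2 of H2-D1, such as that between 35263161 and 35263163. H2-L is a classical class I gene of some mouse strains that C57BL/6 is known to lack, and its model was split into 11 coding pieces of 39, 3, 17, 2, 185, 73, 276, 276, 117, 33 and 40 bases, of which 276, 276, 117 and 33 are also lengths of successive coding exons of H2-D1. The added model H2-T9 shared 97.9% of its exon bases with C920025E04Rik, a pseudogene model that the gene name table calls H2-T-ps. RefSeq listed H2-T-ps, with C920025E04Rik as a synonym, as protein-coding. The added model H2-Ke2 lay wholly inside Pfdn6, a prefoldin subunit. The RefSeq gene table for GRCm38.p6 listed H2-Q8 and H2-Q9 under chromosome 17 with starts of 1642938 and 1714853. Whether these positions count along the main chromosome sequence or along another sequence labelled 17 was not checked. They are therefore not read as a distance from the members. In the same table, H2-K1 was listed as a synonym of 8 other genes and H2-D1 of 5. Without strand, H2-D1 would also share 601 bases (23.3%) with LOC100862184, H2-T22 1003 bases (29.4%) with A930015D03Rik, H2-Q4 496 (19.1%) with Gm11131 and H2-Oa 200 (15.2%) with BC051537.

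**Figure D4:**
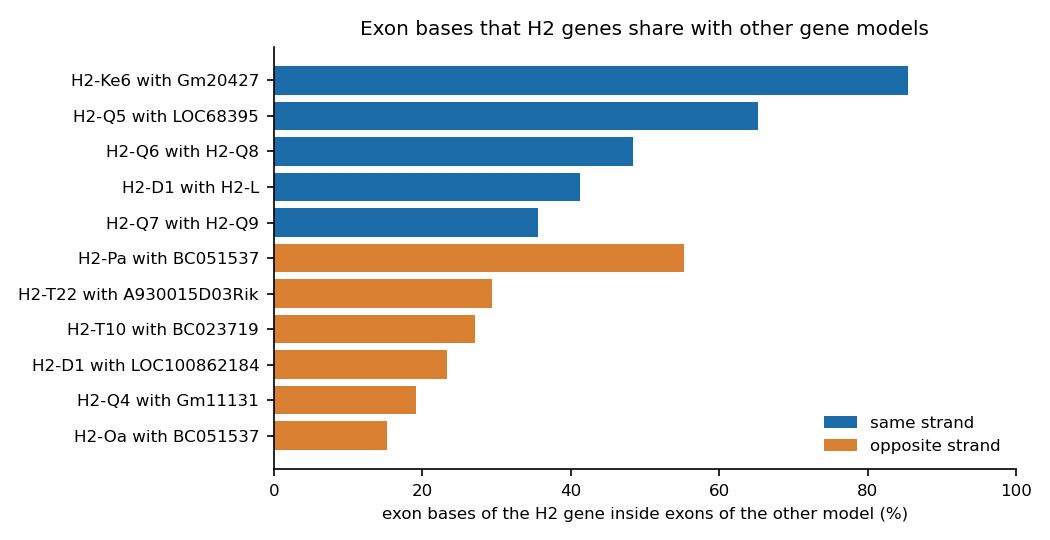
Exon bases of H2 members that lie inside exons of another gene model, as a percent of the member's exon bases, on the same strand (blue) and on the opposite strand (orange). H2-Ke6 with Gm20427 is highest at 85.4%, and the added H2-Q8, H2-L and H2-Q9 models cover 35.7% to 48.3% of H2-Q6, H2-D1 and H2-Q7.

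The 10 pseudogene models were of 3 kinds. Of the 6 unprocessed pseudogenes, copies that kept their introns, H2-K2 had exons of 64, 270, 276, 275, 117 and 47 bases and lay 17226 bases from H2-K1. H2-M6-ps had 79, 273, 277, 282 and 123 bases and H2-M10.5-ps1 had 73, 264, 275, 275 and 52, so in both the 3 exons after the first lay within 6 bases of the class I lengths. H2-Q3 kept 3 exons of 72, 270 and 266 bases. H2-Ea-ps, the E alpha gene that C57BL/6 is known not to express, had 246, 282 and 158 bases, and H2-Pa had 4 exons. H2-Pb, labelled a processed pseudogene, had 3 exons of 112, 274 and 145 bases in a span of 2401 bases. Its model thus held introns too, and whether the label is right was not tested.

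The 3 polymorphic pseudogenes, which are intact in some strains, carried a coding sequence in the annotation. H2-Bl had 11 transcripts, more than any coding member, and 10 of them carried a coding sequence. Its main transcript had exons of 64, 270, 276 and 276 bases followed by 117 and 135, the class I plan. H2-Q5 had 64, 270, 269, 285 and 110 bases and shared 65.2% of its exon bases with the added model LOC68395, with 5 of 5 introns identical. The longest coding sequence of H2-T10 had 379 codons, as many as H2-T22, in 10 coding exons where H2-T22 had 9. Its exons 3 and 4, of 131 and 106 bases, covered codons 116 to 195, as exon 3 of H2-T22 with 237 bases did. These exons of H2-T10 lay close together, at chr17:36120302-36120432 and chr17:36120185-36120290. The gap between them was far shorter than the shortest intron between coding exons of the class I coding genes, 99 bases in H2-M1. Whether this gap is a true intron was not tested. The transcript of H2-T10 marked as a polymorphic pseudogene had 216 codons. The RefSeq table listed all 34 coding members as protein-coding and 0 of the 10 pseudogene members.

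Promoter windows of RefSeq, in assembly GRCm38.p6, were found for 31 of 34 coding members. Each holds 250 bases before and 50 after a start. H2-Ab1, H2-Q1 and H2-T24 had no entry. The 31 genes had 34 windows, and in 30 of them the RefSeq start lay within 100 bases of a start in the deposited annotation, with a median distance of 5 bases. The exceptions were H2-DMb1 by 119 bases, H2-D1 by 364 and both windows of H2-DMa, which lay 9664 and 12350 bases upstream of the annotated start.

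The stretch before the start is shown for 4 genes of the K and Q series because these windows share blocks of sequence. Capitals mark matches, on either strand, to CCAAT (a box bound by NF-Y, read as ATTGG on the other strand) and to GGGNNNNCC (a kappa B site, bound by NF-kappa B factors), where N is any base. H2-K1 is at chr17:34000334-34000583 on the minus strand, and on the plus strand H2-Q6 is at chr17:35424600-35424849, H2-Q7 at chr17:35438905-35439154 and H2-Q10 at chr17:35469839-35470088.
H2-K1: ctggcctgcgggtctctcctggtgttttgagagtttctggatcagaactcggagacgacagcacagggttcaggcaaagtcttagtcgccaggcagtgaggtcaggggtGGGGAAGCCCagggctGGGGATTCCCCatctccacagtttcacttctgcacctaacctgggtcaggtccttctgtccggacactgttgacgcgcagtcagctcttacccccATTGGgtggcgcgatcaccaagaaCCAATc
H2-Q6: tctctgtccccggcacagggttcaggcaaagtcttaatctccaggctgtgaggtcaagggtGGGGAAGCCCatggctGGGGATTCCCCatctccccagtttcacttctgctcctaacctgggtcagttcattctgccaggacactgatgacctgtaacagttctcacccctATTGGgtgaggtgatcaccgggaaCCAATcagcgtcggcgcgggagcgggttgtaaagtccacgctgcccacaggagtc
H2-Q7: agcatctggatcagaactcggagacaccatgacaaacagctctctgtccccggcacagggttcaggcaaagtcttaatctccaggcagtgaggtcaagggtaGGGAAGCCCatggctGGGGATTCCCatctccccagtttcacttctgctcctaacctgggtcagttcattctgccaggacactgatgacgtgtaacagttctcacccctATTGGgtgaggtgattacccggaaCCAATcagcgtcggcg
H2-Q10: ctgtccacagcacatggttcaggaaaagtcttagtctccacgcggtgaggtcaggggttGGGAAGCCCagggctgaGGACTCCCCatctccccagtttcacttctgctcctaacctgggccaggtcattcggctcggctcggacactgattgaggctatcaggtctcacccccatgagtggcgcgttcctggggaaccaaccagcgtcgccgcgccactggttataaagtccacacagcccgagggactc

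In the 6 genes of the K, D and Q series that had a kappa B match, H2-K1, H2-D1, H2-Q4, H2-Q6, H2-Q7 and H2-Q10, the stretches shared the run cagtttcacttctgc letter for letter. Among the windows of 27025 genes, these 6 genes alone held it. The run was found by looking for the longest stretch common to these windows, so its presence in them is by construction. With H2-Q2, the only other gene of these series with a window, the longest common run was 6 bases, aaagtc, which 2271 genes held. In the H2-D1 window, which lies inside the annotated 5′ exon of H2-D1, the kappa B matches took the 27 bases at chr17:35262907-35262933, GGGGAAGCCCagggctGGGGATTCCCC, and the same 2 capital blocks stand in the H2-K1 and H2-Q6 stretches above. H2-Q7 had 9 and 10 bases in place of these 10 and 11, H2-Q10 had 2 blocks of 9, and H2-Q4 had 1 block of 10. Kappa B matches were found in 6 of 7 K, D and Q genes with a window (not H2-Q2), in 3 of 12 M genes and in 0 of 3 T genes. They were also found in 4 of 8 class II genes and in H2-Ke6. In H2-M10.6, among the M genes, the match lay after the start. Over all genes 46.4% had such a match, so the count in coding members, 14 of 31, was near the background.

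Spacing was shared as well. An ATTGG followed by a CCAAT at most 30 bases later was found in 9 of 31 members with a window, and in 1.71% of all genes. The space was 19 bases in H2-K1, H2-Q4, H2-Q6, H2-Q7 and, in class II, H2-Eb1. It was 18 in H2-D1, 20 in H2-T22 and 15 in H2-M9 and H2-M1. H2-Q10 had kappa B matches and no CCAAT box in its window, as the stretch above shows.

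The M10 promoters resembled each other. Over the 15 pairs of the 6 M10 genes, 74.4% to 88.8% of alignment columns were identical in the 250 bases before the start, with a median of 82.8%. Over 21 pairs of the K, D and Q genes the median was 58.3%, over 28 class II pairs it was 46.0%, and between class I and class II genes it was 46.4%. The run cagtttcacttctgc of 6 K, D and Q genes began between 158 and 93 bases before the start, so these windows were shifted against each other. How far the shift lowers their identity was not tested. When only columns without gaps were counted, the medians were 86.6% for M10 and 85.8% for K, D and Q, but the ranges still differed. They were 77.6% to 94.6% for M10 and 59.7% to 97.6% for K, D and Q, where the pairs with H2-Q2 had 59.7% to 69.0%. H2-Q6 and H2-Q7 were then the closest pair with 97.6%, against 94.6% for H2-M10.3 and H2-M10.5. With gaps counted, H2-M10.3 and H2-M10.5 were the closest pair with 88.8%, and they are shown at chr17:36368418-36368667 (minus strand) and chr17:36772660-36772909 (plus strand) to let the likeness be read, with CCAAT in capitals.
H2-M10.3: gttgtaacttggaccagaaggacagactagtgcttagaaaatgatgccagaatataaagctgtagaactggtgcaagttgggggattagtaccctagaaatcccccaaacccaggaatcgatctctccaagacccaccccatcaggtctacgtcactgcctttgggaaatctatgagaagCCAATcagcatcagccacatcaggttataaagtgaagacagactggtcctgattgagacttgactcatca
H2-M10.5: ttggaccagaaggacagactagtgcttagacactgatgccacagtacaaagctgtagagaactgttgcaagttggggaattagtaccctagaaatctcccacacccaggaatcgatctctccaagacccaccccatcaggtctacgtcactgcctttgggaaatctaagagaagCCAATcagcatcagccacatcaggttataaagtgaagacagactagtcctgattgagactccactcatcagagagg
All 6 M10 genes had a CCAAT box that began between 77 and 70 bases before the start, on the strand of the gene. The run ccatcaggtcta, the longest common to the 6, was in these 6 genes alone among 27025. It began between 119 and 112 bases before the start.

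Class II promoters are known for a set of boxes, with an X box bound by RFX factors and a Y box, an inverted CCAAT, that are needed for control by the transactivator. The stretches of H2-Aa (chr17:34287828-34288073, minus strand), H2-Eb1 (chr17:34305617-34305866, plus strand) and H2-Ob (chr17:34238655-34238902, plus strand) are shown for these boxes, with TAGCAAC (an X box core), CCAAT and GGGNNNNCC matches in capitals.
H2-Aa: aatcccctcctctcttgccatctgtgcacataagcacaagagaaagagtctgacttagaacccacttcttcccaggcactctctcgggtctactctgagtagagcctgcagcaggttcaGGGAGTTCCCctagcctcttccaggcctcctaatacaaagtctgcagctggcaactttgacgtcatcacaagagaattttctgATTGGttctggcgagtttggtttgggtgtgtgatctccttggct
H2-Eb1: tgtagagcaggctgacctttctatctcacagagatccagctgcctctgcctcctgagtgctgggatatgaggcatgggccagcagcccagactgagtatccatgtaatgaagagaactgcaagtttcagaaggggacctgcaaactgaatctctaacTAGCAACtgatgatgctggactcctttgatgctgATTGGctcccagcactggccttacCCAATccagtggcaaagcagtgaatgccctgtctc
H2-Ob: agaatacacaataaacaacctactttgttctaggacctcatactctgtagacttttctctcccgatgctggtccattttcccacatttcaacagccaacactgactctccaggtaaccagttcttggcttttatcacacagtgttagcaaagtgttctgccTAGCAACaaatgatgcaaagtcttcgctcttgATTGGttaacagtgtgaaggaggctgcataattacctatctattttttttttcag
In H2-Eb1 and H2-Ob, TAGCAAC was followed by ATTGG after 27 and 25 bases. An order of this kind within 60 bases was found in 26 of 27025 genes (0.0962%), these 2 included. H2-Aa had ATTGG at 48 bases before the start and no TAGCAAC in its window. TAGCAAC was found in 3 of 8 class II genes, in 0 of 22 class I genes and in 4.28% of all genes. The third class II gene was H2-Eb2, with TAGCAAC 11 bases before the start and ATTGG at 100 bases, the reverse of the order above.

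The orientation of the CCAAT box differed between the classes. Within 110 bases before the start, ATTGG was found in 7 of 8 class II genes (all but H2-DMa) and CCAAT in 1, H2-Eb1. In class I genes, CCAAT was found in 18 of 22 and ATTGG in 10. Over all genes the shares were 13.1% for ATTGG and 12.6% for CCAAT in the same stretch. In the whole window, in either orientation, 28 of 31 coding members had a CCAAT box, against 41.1% of all genes, and the 3 without one were H2-Q10, H2-T3 and H2-M5.

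An interferon element, GAAANNGAAA on either strand, was found in 2 of 31 coding members (6.45%), against 3.99% of all genes. These were H2-T22 and H2-T23, and both had it on the strand opposite to the gene. The H2-T23 site lies inside an annotated exon of H2-T23, as 154 bases before the RefSeq start do. The sites are shown with 10 bases on each side, at chr17:36042914-36042943 for H2-T22 and chr17:36032806-36032835 for H2-T23, both on the minus strand.
H2-T22: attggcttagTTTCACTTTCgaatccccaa
H2-T23: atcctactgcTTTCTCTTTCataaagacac
A missing match says only that these letters are not in this window. The run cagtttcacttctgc of 6 K, D and Q genes holds tttcactt, letters that also open the H2-T22 match. It is not an exact match and was not counted, and whether it acts as an interferon element was not tested.

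**Figure D5:**
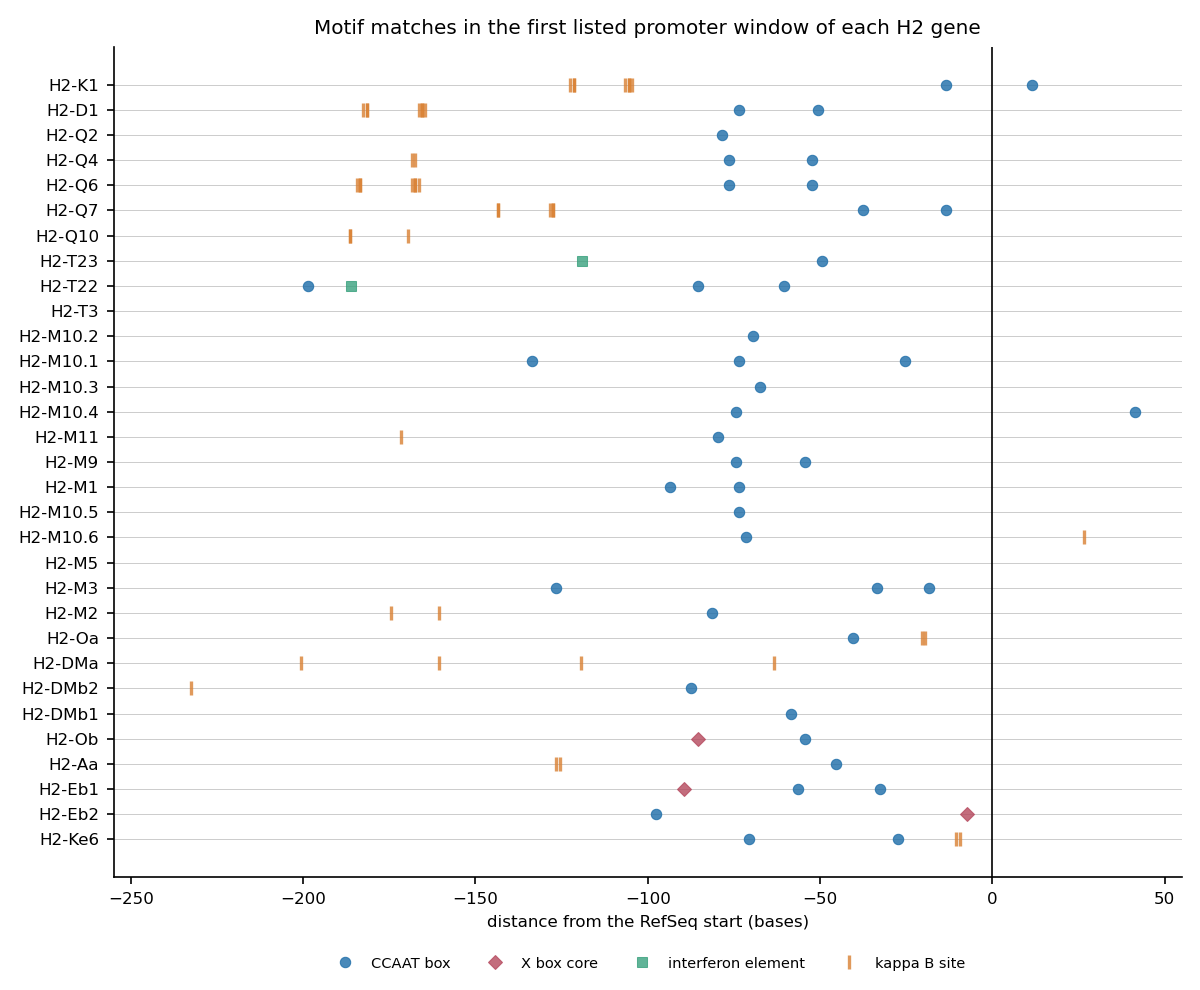
Matches to 4 motifs in the first listed RefSeq promoter window of each of 31 H2 genes, by distance in bases from the RefSeq start (vertical line), class I genes first, then class II and H2-Ke6; marks sit at the middle of a match. CCAAT boxes in the M10 genes line up near 70 bases before the start, and kappa B matches cluster between 191 and 109 bases before it in the K, D and Q genes.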

How the data were processed

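The file analysed was the gene annotation that the authors deposited, which places exons, coding sequences and codons by start and end and holds 1544831 lines. It carries 0 columns of values per sample. Per the submitters' processing notes, the reads were aligned with TopHat2 2.1.1 to build mm10. The sources used here do not say how the annotation was made or where it was used.

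Python 3.11.15 with pandas 2.3.3 parsed the models. Ensembl sources defined the members, and models of other sources are called added models. Exon sharing was counted on merged exons of the same strand, with 50% as the limit. Coding exons came from the transcript with the longest coding sequence. Class was taken from the symbol. RefSeq windows (GRCm38.p6) were matched by symbol, searched for exact motif matches and aligned globally with Biopython 1.88. Genes were named by role and place, with the 3 highest in each measure. Members and lists were chosen with earlier results of these data known, and the CCAAT pairs, shared runs, orientations and intron lengths after the values were seen. Parsing and motif search were tested on simulated data. Replicates were not compared, because no library value was analysed.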

Additional observations from a re-analysis of the deposited data

How the results depend on the processing

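Of 26 alternatives, 17 left a count within 1.5 times its value or a median within its interval or range. The median spliced length was 1238 bases when a gene's transcripts were averaged by their median, against 1472 over all protein-coding genes by the same measure. With at least 90% of exon bases shared as the limit, 0 coding members were counted, and on either strand 2, H2-D1 being added to H2-Ke6. Clusters numbered 13 with gaps of 50000 bases and 3 with gaps of 500000. With all biotypes, 276 other genes lay between the outermost members. Identity over columns without gaps, added after the data were seen, had a median of 86.6% for M10 pairs, 85.8% for K, D and Q pairs, 60.7% for class II pairs and 61.3% between the classes. Leaving out alignment gaps accounts for these higher values by construction.

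No paired analysis was possible because the file used holds gene models and 0 sample values. Protein identity was not run. Depth limits nothing reported, since models and not reads were counted. The models are those of 1 annotation on build mm10, so genes that differ between strains are described only as they stand there.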

Other observations

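Among the 13 listed genes with a class I fold and another name, the exon plan of the H2 genes was met in part. Mr1, which presents vitamin B metabolites, had coding exons 2 to 4 of 261, 276 and 276 bases. Hfe, a regulator of iron uptake, had 264, 300 and 276, and Fcgrt, the neonatal Fc receptor, had 258, 276 and 270. Cd1d2 had 273 and 279 bases in exons 2 and 3 like Cd1d1, and 77 in exon 4 against 279. Mill2 met the length rule in another of its transcripts than the one with the longest coding sequence. Raet1d and Raet1e, ligands of the receptor NKG2D, shared 69.0% and 72.3% of their exon bases with other models on the same strand, above H2-Q6 with 48.3%.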
